A study of Mus musculus with 2 samples.

Results

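The 28 genes described here encode enzymes and regulators of cholesterol and fatty acid synthesis. They were taken as a list of gene symbols and all 28 were found among the 32286 features measured. The measurements are UMI counts from 3′ droplet sequencing of single hematopoietic cells from mouse marrow, and each of the 2 groups is a single library. Control cells have the genotype Mx1Cre+/-;Rosa26+/+, and the cells of the MYC library have Mx1Cre+/-;Rosa26LSL-MYC/LSL-MYC, so both carry Mx1-Cre and the Rosa26 locus is what differs. The Mx1 promoter responds to interferon and drives Cre recombinase in hematopoietic stem cells and in other tissues. In LSL-MYC, Cre excises a stop signal that lies ahead of the MYC transgene. The age, sex and number of the animals and how Cre was induced are not given in the sources used here. The question named by the series is how expression in marrow cells differs once MYC is overexpressed in hematopoietic stem cells.

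Cells make cholesterol from acetyl-CoA through mevalonate, isoprenoids, squalene and lanosterol, and they make fatty acids from the same acetyl-CoA by carboxylation, chain building, desaturation and elongation. Transcription of both branches is driven by the sterol regulatory element-binding proteins (SREBPs), which Srebf2 and Srebf1 encode. Scap carries SREBPs to the Golgi for activation, and Insig1, itself an SREBP target, holds Scap back when sterols are plentiful. Oxysterol-activated liver X receptors (LXRs) induce sterol efflux genes such as Abca1 and Abcg1.

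After filtering, 14760 control cells (median 5322 unique molecular identifiers, UMIs) and 12645 cells of the MYC library (median 6014 UMIs) were kept, and 77 barcodes occurred in both. The transgene feature named MYC had 0 UMIs in the control and 295 UMIs, in 2.16% of cells, in the MYC library. Cells were clustered with the 28 genes left out, and clusters were named from marker genes. The marrow label held, with clusters of stem or multipotent progenitors, neutrophil stages, monocytes, macrophages, megakaryocytes and erythroid cells. Dendritic, basophil or mast, T or NK, B and plasma cells were found too, and names below stand for cells like these. Cluster 10, the macrophages led by C1qb and C1qc, made up 0.136% of the control (20 cells) but 5.07% of the MYC library (641 cells). It fell short of 100 cells in the control, so macrophages were not compared between libraries. No name was given to clusters with 20.7% (control) and 23.1% (MYC library) of cells, including a group of low-UMI cells led by Cxcl12, a stromal gene. Levels are UMIs of a gene scaled to 1000000 UMIs over the cells of a class (CPM). Each range in brackets is an exact 95% interval that covers counting error only. With 1 library per group there was no replicate and no test, and genotype cannot be told apart from library preparation. A gene counts as past 1.5-fold where the ratio of CPM + 1 passes 1.5 and the class held at least 50 UMIs of it over both libraries; log2 ratios printed with an interval are of plain CPM. In mature neutrophils the clusters differ by library: clusters 0 and 1 held 1332 and 922 control cells against 134 and 111, and cluster 2 held 269 against 1735.

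The promoter sequences of 7 members are shown first, as examples picked after the values were seen. Srebf2, Insig1, Hmgcs1, Hsd17b7 and Sc5d are 5 of the 10 members that stood past 1.5-fold lower in the MYC library in both neutrophil classes. Pmvk and Ebp are among the 5 members that were lower in no class, with Mvk, Lss and Scap. Each is the stretch up to 250 bases before a RefSeq transcript start (GRCm38.p6), read on the strand of the gene and ended before its first exon base in the GENCODE annotation. Capitals mark matches to 3 motifs on either strand. CCAAT (reverse: ATTGG) is the box bound by NF-Y, an SREBP partner. The palindrome CACGTG is an E box. The core of a sterol regulatory element was searched as CACCCCAC.
Srebf2 (chr15:82147019-82147180, plus strand): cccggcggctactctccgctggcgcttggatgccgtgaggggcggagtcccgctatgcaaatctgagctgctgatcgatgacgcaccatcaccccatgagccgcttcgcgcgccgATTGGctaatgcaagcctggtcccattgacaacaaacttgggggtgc
Insig1 (chr5:28071162-28071362, plus strand): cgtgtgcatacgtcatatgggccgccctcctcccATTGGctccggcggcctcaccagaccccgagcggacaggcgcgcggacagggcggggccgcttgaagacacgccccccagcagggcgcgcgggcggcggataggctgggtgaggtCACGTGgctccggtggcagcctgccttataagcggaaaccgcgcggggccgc
Hmgcs1 (chr13:119690101-119690350, plus strand): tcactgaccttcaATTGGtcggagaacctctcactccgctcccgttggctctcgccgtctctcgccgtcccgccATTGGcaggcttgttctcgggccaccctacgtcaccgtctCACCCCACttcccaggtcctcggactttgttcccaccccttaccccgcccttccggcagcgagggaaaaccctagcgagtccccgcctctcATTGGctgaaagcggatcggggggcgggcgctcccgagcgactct
Hsd17b7 (chr1:169969242-169969455, minus strand): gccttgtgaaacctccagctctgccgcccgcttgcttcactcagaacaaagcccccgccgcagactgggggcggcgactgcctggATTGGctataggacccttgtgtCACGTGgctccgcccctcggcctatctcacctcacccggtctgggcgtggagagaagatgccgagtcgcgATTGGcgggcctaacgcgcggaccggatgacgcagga
Sc5d (chr9:42264301-42264550, minus strand): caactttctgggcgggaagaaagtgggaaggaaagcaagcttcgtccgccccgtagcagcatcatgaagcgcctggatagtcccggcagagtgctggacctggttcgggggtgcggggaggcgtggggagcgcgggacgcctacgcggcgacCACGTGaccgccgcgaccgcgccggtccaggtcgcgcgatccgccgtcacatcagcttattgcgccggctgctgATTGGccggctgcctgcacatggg
Pmvk (chr3:89454291-89454540, plus strand): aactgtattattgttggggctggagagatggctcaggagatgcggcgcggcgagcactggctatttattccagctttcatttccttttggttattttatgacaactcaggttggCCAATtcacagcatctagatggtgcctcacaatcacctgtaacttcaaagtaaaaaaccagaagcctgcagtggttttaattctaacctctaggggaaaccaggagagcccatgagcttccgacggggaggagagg
Ebp (chrX:8193513-8193762, minus strand): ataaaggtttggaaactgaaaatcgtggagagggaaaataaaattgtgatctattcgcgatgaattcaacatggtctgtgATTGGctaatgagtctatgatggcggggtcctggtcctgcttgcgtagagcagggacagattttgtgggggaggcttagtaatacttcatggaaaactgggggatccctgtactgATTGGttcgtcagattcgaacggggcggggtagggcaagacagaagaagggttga
Of the 28 members 23 had an entry among the RefSeq promoters. In the full windows of 250 bases CCAAT or ATTGG was found for 18 of these 23 (78.3%), against 37.5% of 27025 genes and 39.5% of 17492 coding genes. GGGCGG or CCGCCC, the GC box of Sp1, was found for 18 (78.3%), against 35.4% of genes and 45.8% of coding genes. CACGTG was found for 6 members (26.1%), Dhcr7, Elovl5, Hsd17b7, Insig1, Sc5d and Scap, against 6.86% of genes and 7.61% of coding genes. The match of Dhcr7 lay in its own exons, and that of Scap was not within the stretch before its first exon base. CACCCCAC or its reverse was found for 2, Acat2 and Hmgcs1 (8.70%), against 2.98%. A longer form of the sterol regulatory element occurred in no member and in 0.0814% of genes. A gene counts here if any of its windows holds the letters, also where they lie in its own exons.

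Across the 10 single cell classes with at least 100 cells in each library, 204 of 280 pairs of a member and a class had enough UMIs, and 70 were past 1.5-fold. In 62 of these the level was lower in the MYC library and in 8 it was higher. Over all genes, too, lower calls outnumbered higher ones in each of the 10 classes. By class, 10.9% to 26.5% of all genes were lower and 4.32% to 15.2% higher. Srebf2 was lower in 6 of the 10 classes, the most for any member, and Scd2 was lower in 4 and higher in 2. The 8 higher pairs were Scd2 in immature and mature neutrophils, Pmvk in monocytes, conventional dendritic cells and mature B cells, Ebp in stem or multipotent progenitors and mature B cells, and Fdps in mature B cells. Mvk, Lss and Scap were past the fold in no class. The interval of the plain ratio included 0 for 9 of the 70 pairs, all in dendritic, T or NK and mature B cells.

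**Figure D1:**
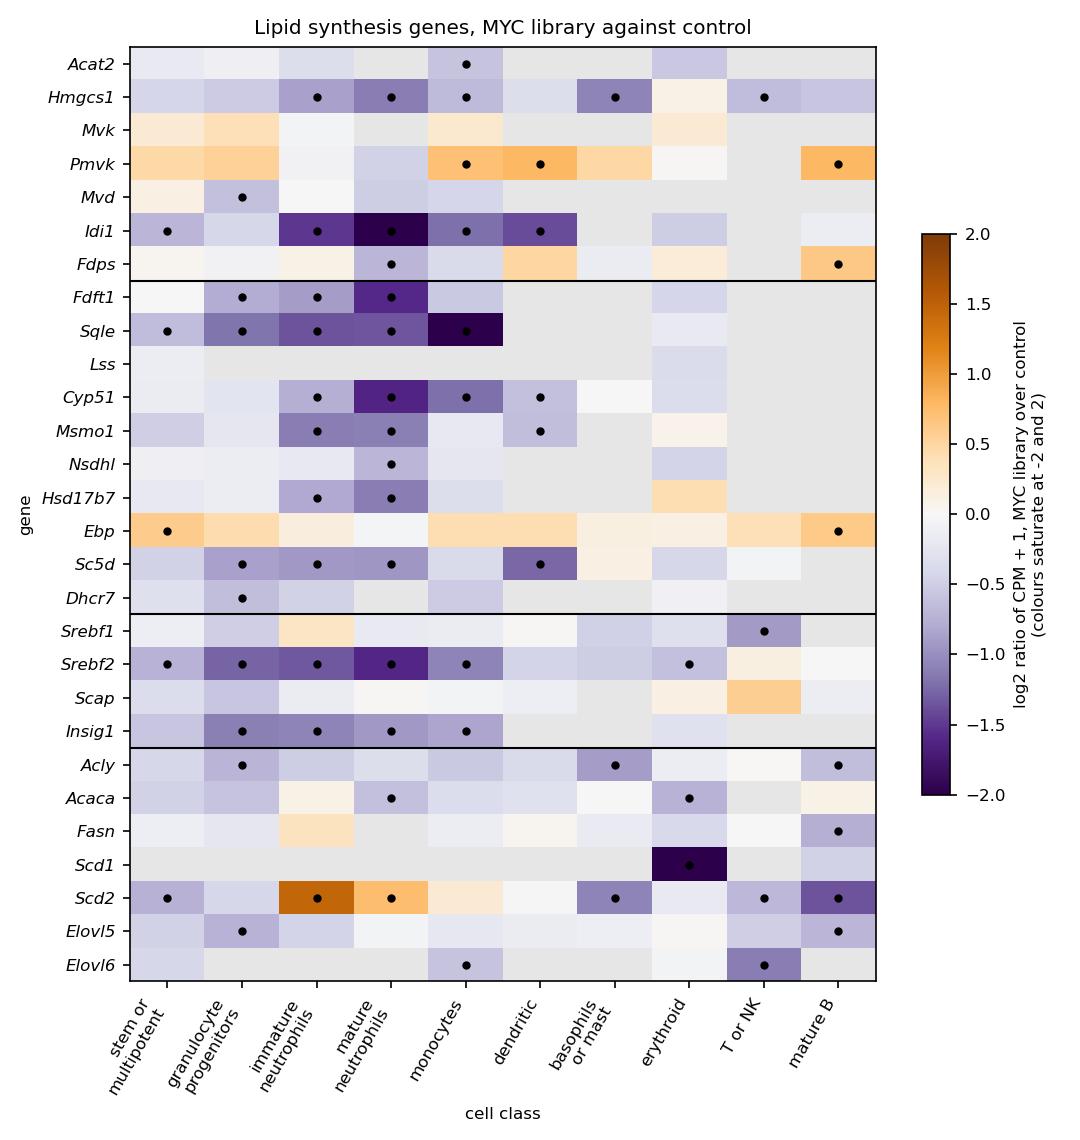
Log2 ratio of CPM + 1, MYC library over control, for the 28 genes (rows, by role: mevalonate and isoprenoid steps, squalene and sterol steps, regulators, fatty acid genes) in 10 cell classes (columns). Purple is lower and orange higher in the MYC library, colours saturate at -2 and 2, grey marks pairs with under 50 UMIs, and dots mark the 70 pairs past 1.5-fold; mature neutrophils hold 14 dots, immature neutrophils 11, and granulocyte progenitors and monocytes 9 each, mostly on purple.

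Mature neutrophils had the largest number of members past the fold. Of 21 members with enough UMIs, 13 were lower and 1 was higher, beside 18.2% and 7.03% of all genes tested in the class. The median log2 ratio of the members was -0.70 and that of all genes -0.20. In immature neutrophils 10 of 25 members were lower and 1 was higher, beside 13.8% and 6.71% of all genes, with medians of -0.44 and -0.18. The 10 lower in immature neutrophils were Srebf2, Insig1, Hmgcs1, Idi1, Fdft1, Sqle, Cyp51, Msmo1, Hsd17b7 and Sc5d. Mature neutrophils showed these 10 as lower too, with Fdps, Nsdhl and Acaca. Both classes come from the same 2 libraries and are not replicates. With median-of-ratios scaling, which shifts all log2 ratios by 0.22 in mature and 0.21 in immature neutrophils, 10 members were lower in each, beside 9.64% and 5.12% of all genes. The 9 erythroblast markers summed to 2716 and 1431 CPM in mature neutrophils and to 1126 and 794 CPM in immature neutrophils. In immature neutrophils the 9 mature neutrophil markers summed to 1865 and 1040 CPM and the 8 basophil or mast cell markers to 243 and 143 CPM; in mature neutrophils the latter summed to 691 and 417 CPM. The part of these markers was not tested. Immature neutrophils are cluster 4 (1012 control cells and 1236 of the other library) and cluster 6 (1230 and 828), and of their 10 lower members Hmgcs1, Cyp51, Msmo1 and Hsd17b7 passed the fold in cluster 6 but not in cluster 4.

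Among the regulators, Srebf2 (ENSMUSG00000022463, GRCm38 chromosome 15, 82147181 to 82205379, plus strand) encodes the SREBP that mainly serves cholesterol genes. In mature neutrophils it stood at 44.0 CPM in the control (40.9 to 47.3, 734 UMIs) and 13.9 CPM in the MYC library (12.2 to 15.7, 256 UMIs). The log2 ratio was -1.67 (-1.88 to -1.46), and counted per cell the level was lower as well, with 183 and 74.8 UMIs per 1000 cells. Immature neutrophils had 41.3 and 15.8 CPM (log2 ratio -1.39, -1.57 to -1.22). Insig1, the sterol-sensing retention protein, stood at 4.54 and 1.63 CPM in immature neutrophils (-1.48, -2.04 to -0.94). Srebf1, which encodes the SREBP that mainly serves fatty acid genes, and Scap were past the fold in neither class, and Scap in mature neutrophils stood at 5.70 and 5.79 CPM (0.02, -0.39 to 0.44). Of the 4 regulators, Srebf2 and Insig1 were thus past the fold in both classes.

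In the mevalonate branch, Idi1, the isomerase that makes the reactive isoprenoid unit, had the lowest ratio of any member in mature neutrophils. It stood at 11.0 CPM in the control (183 UMIs) and 1.79 CPM in the MYC library (33 UMIs; log2 ratio -2.62, -3.20 to -2.08). Immature neutrophils had 13.2 and 3.97 CPM of Idi1 (-1.73, -2.08 to -1.39). Hmgcs1, the synthase that makes HMG-CoA, stood at 21.1 and 9.20 CPM in mature neutrophils (-1.20, -1.47 to -0.93) and at 18.0 and 9.41 CPM in immature neutrophils (-0.94, -1.17 to -0.70). The kinases upstream of Idi1 were past the fold in neither class. Pmvk stood at 10.5 and 10.03 CPM in immature neutrophils (-0.07, -0.33 to 0.19) and at 9.66 and 6.71 CPM in mature neutrophils (-0.52, -0.87 to -0.18). Mvk stood at 3.18 and 3.01 CPM in immature neutrophils (-0.08, -0.56 to 0.40), and in mature neutrophils it had 32 and 16 UMIs, too few for the fold rule. Fdps, which makes farnesyl diphosphate, was past the fold in mature neutrophils alone of the neutrophil classes.

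Of the 10 squalene and sterol steps, 7 of 8 with enough UMIs were lower in mature neutrophils, beside 18.2% of all genes. In immature neutrophils 6 of 9 were lower, beside 13.8%, though Sqle had too few UMIs for the fold rule in clusters 4 and 6 taken alone. Fdft1, squalene synthase, had 8.64 and 2.22 CPM in mature neutrophils (-1.96, -2.50 to -1.45), but it overlaps Ctsb on the opposite strand. Sqle, squalene epoxidase, had 3.78 CPM (63 UMIs) and 0.866 CPM (16 UMIs) there (-2.13, -3.02 to -1.32). Cyp51, the lanosterol demethylase, had 7.68 and 1.84 CPM (-2.06, -2.65 to -1.51), and it overlaps Akap9 on the opposite strand. Whether reads were counted by strand is not given in the sources used here, so reads of such partners cannot be told apart. Srebf1 overlaps Rai1 in the same way, and Hmgcs1, Lss, Acaca and Elovl6 each overlap a predicted or unnamed gene on the other strand. Acat2 has a close copy, Acat3, with which reads may be shared. Msmo1, the methylsterol oxidase, stood at 47.9 and 21.7 CPM in mature neutrophils (-1.14, -1.32 to -0.97), and Hsd17b7, a ketoreductase of the same demethylation, at 7.02 and 2.71 CPM (-1.37, -1.88 to -0.89). In immature neutrophils the largest ratio of the sterol steps was that of Sqle, 2.77 against 0.460 CPM (-2.59, -3.66 to -1.66, 67 and 11 UMIs). Ebp, the sterol isomerase, stood apart: 18.8 and 18.3 CPM in mature neutrophils (-0.04, -0.27 to 0.18) and 34.8 and 38.5 CPM in immature neutrophils (0.15, 0.01 to 0.28).

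Neutrophil-lineage clusters that did not come mostly from 1 library were compared one by one, a split chosen after the data were seen. Cluster 3 is the whole of the granulocyte progenitors, clusters 4 and 6 make up the immature neutrophils, and cluster 9, led by Mmp8, is the part of the mature neutrophils shared most evenly, with 1485 control and 1444 MYC library cells. It scored highest for immature neutrophil markers and took the mature name as its next best type, so it lies between the classes. In cluster 9, 12 of 19 members were lower and 1 was higher, beside 16.9% and 8.61% of all genes. In cluster 6, 10 of 20 were lower and 1 was higher, beside 16.9% and 7.89%. In cluster 4, 6 of 24 were lower and 1 was higher, beside 14% and 5.84%. The UMIs of the 28 genes summed to 405 CPM (391 to 420) in cluster 9 of the control and 195 CPM (186 to 204) in that of the MYC library, to 396 and 216 CPM in cluster 6, and to 323 and 278 CPM in cluster 4. Of these clusters, 6 and 9 differed most. The mature neutrophil clusters that came mostly from 1 library differed less: the sum was 236 (223 to 249.9) and 152 CPM (121 to 187) in cluster 0, 206 (189.7 to 224) and 218 CPM (177 to 267) in cluster 1, and 199 (172 to 228) and 146 CPM (139 to 155) in cluster 2. In cluster 1 the intervals overlapped and the MYC library was not lower. In the control, Msmo1 stood at 10.8 CPM in cluster 4, 47.2 CPM in cluster 6 and 69.7 CPM in cluster 9; the MYC library had 8.26, 18.3 and 26.8 CPM. Idi1 stood at 10.8, 16.9 and 18.6 CPM in these clusters of the control and at 4.87, 1.54 and 1.71 CPM in the MYC library. Srebf2 had 32.3, 55.6 and 62.3 CPM in the control and 15.7, 15.9 and 18.3 CPM in the MYC library. In the MYC library Idi1 was therefore lower in clusters 6 and 9 than in cluster 4, while in the control it was higher there, and the 95% intervals of the clusters do not overlap in either case. The 12 cell cycle genes summed to 365 and 388 CPM in cluster 6, to 315 and 197 CPM in cluster 9 and to 4008 and 3120 CPM in cluster 4. Their part in the member levels was not tested.

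**Figure D2:**
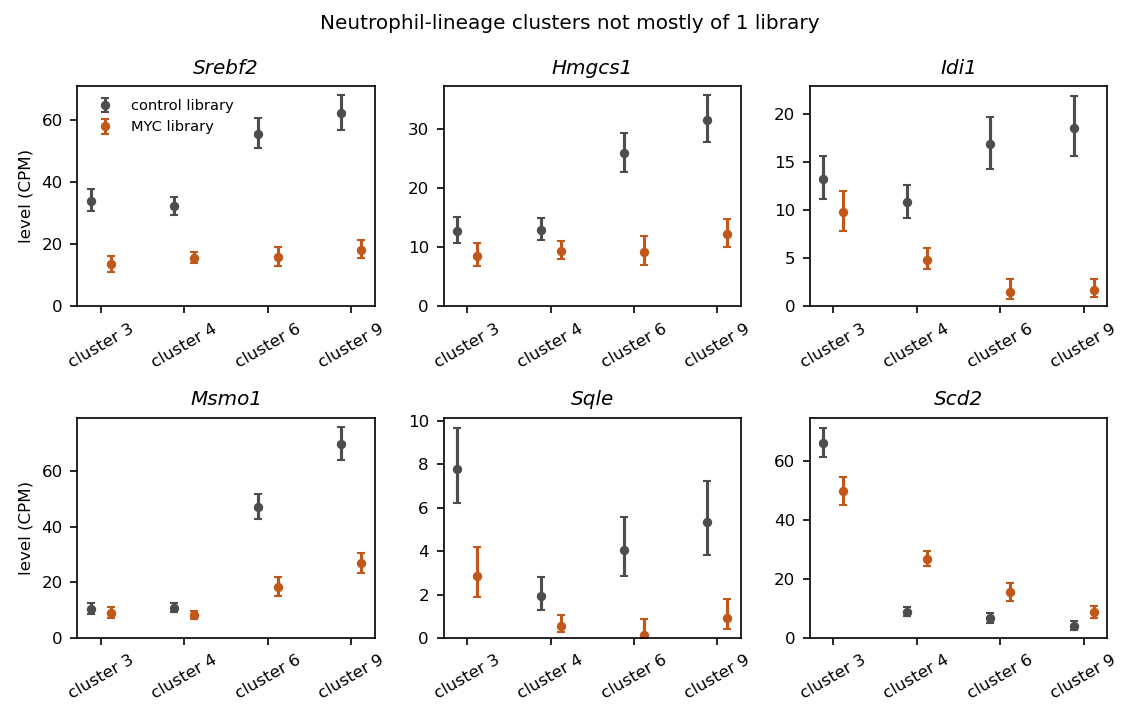
Level in CPM (linear axes from 0) of 6 members in the 4 neutrophil-lineage clusters not mostly of 1 library; points are class sums of 1 library (grey control, orange MYC library) and bars exact 95% Poisson intervals. Srebf2, Hmgcs1, Idi1 and Msmo1 differ most in clusters 6 and 9, where Msmo1 stood at 47.2 and 69.7 CPM in the control against 18.3 and 26.8 CPM, and Scd2 is higher in the MYC library in clusters 4, 6 and 9.

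Granulocyte progenitors had 9 of 25 members lower and 0 higher, beside 22.2% and 4.32% of all genes, with a member median of -0.49 and an all-gene median of -0.27. Srebf2 stood at 34.0 and 13.5 CPM (-1.33, -1.64 to -1.03), Sqle at 7.79 and 2.86 CPM (-1.45, -2.14 to -0.79) and Insig1 at 7.03 and 2.75 CPM (-1.35, -2.07 to -0.68). Sc5d, a desaturase late in the pathway, stood at 21.95 and 11.6 CPM (-0.93, -1.27 to -0.59), and Fdft1 at 9.88 and 5.39 CPM (-0.87, -1.40 to -0.37). Elovl5, an elongase of polyunsaturated fatty acids, had 58.3 and 35.0 CPM (-0.74, -0.94 to -0.54), and Acly, which makes cytosolic acetyl-CoA, 57.3 and 34.4 CPM (-0.73, -0.94 to -0.54). Dhcr7, the reductase of the last step, had 8.55 and 5.17 CPM (-0.73, -1.27 to -0.20), and Mvd, the mevalonate decarboxylase, was the ninth gene past the fold. With median-of-ratios scaling, which shifts log2 ratios by 0.26 here, 4 members were lower and 3 higher, beside 7.13% and 12.7% of all genes, so in this class the split between higher and lower depended on the scaling. The 9 erythroblast markers summed to 716 and 363 CPM here, the 8 basophil or mast cell markers to 173 and 78.8 CPM and the 12 cell cycle genes to 2672 and 2107 CPM, and their part in these values was not tested. Each of the 9 lower ratios was larger in size than the shift of 0.26, which follows from the fold rule alone.

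Stem or multipotent progenitors had 4 of 27 members lower, beside 10.9% of all genes, and 1 higher, beside 4.52%. Srebf2 stood at 46.5 and 27.8 CPM (-0.74, -0.96 to -0.52), Idi1 at 21.9 and 13.1 CPM (-0.74, -1.06 to -0.42), Sqle at 13.1 and 8.07 CPM (-0.70, -1.12 to -0.29) and Scd2, a fatty acid desaturase, at 89.4 and 53.2 CPM (-0.75, -0.90 to -0.59). Ebp was the member that stood higher, with 50.4 and 76.9 CPM (0.61, 0.44 to 0.78). The direction of all 5 was kept in each alternative run, but the sizes of Sqle and Srebf2 depended on which cells were called stem or multipotent: at Leiden resolution 2, with 191 and 182 cells, the ratios of CPM + 1 were -0.15 and -0.49, and with called doublets kept -0.20 and -0.46. Ebp was just past the fold at 0.60 on that scale, and it was under it at resolution 2 (0.56), with doublets kept (0.53) and as a mean over cells (0.57). With doublets kept Idi1 (-0.54) was under the fold too. With median-of-ratios scaling 2 members were lower and 1 higher, beside 6.29% and 8.28% of all genes. Markers moved within the class as well: the 10 stem or multipotent markers summed to 639 and 402 CPM, the 8 megakaryocyte markers to 1094 and 644 CPM and the 7 eosinophil markers to 217 and 467 CPM, and their part in these values was not tested.

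Monocytes had 8 of 26 members lower and 1 higher, beside 14.8% and 8.48% of all genes, with medians of -0.39 for the members and -0.14 for all genes. The largest ratio was that of Sqle, 6.78 CPM (88 UMIs) against 0.865 CPM (16 UMIs) (-2.97, -3.84 to -2.19). Cyp51 followed with 14.3 and 5.62 CPM (-1.35, -1.71 to -0.996), Idi1 with 15.3 and 6.05 CPM (-1.33, -1.68 to -0.99), Srebf2 with 46.2 and 21.4 CPM (-1.11, -1.30 to -0.93) and Insig1 with 13.02 and 6.86 CPM (-0.92, -1.27 to -0.58). Hmgcs1 stood at 21.7 and 13.3 CPM (-0.70, -0.96 to -0.45). Pmvk, phosphomevalonate kinase, went the other way, with 11.3 and 19.1 CPM (0.75, 0.47 to 1.04). Acat2, the cytosolic acetoacetyl-CoA thiolase, and Elovl6, which elongates palmitate, were just past the fold, each with a ratio of CPM + 1 of -0.59. With median-of-ratios scaling, a shift of 0.15, 5 members were lower and 1 higher, beside 8.85% and 13.9% of all genes. In monocytes the 9 erythroblast markers summed to 1213 and 584 CPM, the 8 conventional dendritic cell markers to 349 and 162 CPM and the 8 monocyte markers to 8294 and 6263 CPM, and their part in these values was not tested.

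In conventional dendritic cells, a cluster of 234 and 181 cells led by MHC class II genes with Mrc1 and Axl, 4 of 16 members were lower and 1 was higher, beside 17.2% and 15.2% of all genes. Mrc1 and Axl are on the macrophage marker list, so the cluster may hold macrophages as well. Under some alternatives fewer members were lower or more were higher in this cluster, as given in the closing section. Idi1 stood at 19.0 and 6.63 CPM (38 and 12 UMIs, -1.52, -2.59 to -0.55) and Sc5d at 18.5 and 7.18 CPM (37 and 13 UMIs, -1.37, -2.40 to -0.42). The intervals of Msmo1 and Cyp51 included 0. Pmvk stood at 16.5 and 29.3 CPM (0.83, 0.17 to 1.5001). In this cluster the 12 cell cycle genes summed to 922 and 1637 CPM, the 10 macrophage markers to 2414 and 1219 CPM and the 9 erythroblast markers to 3048 and 804 CPM, and their part in these values was not tested. Basophils or mast cells had 3 of 13 members lower and 0 higher, beside 20.2% and 8.37% of all genes: Hmgcs1 (26.8 and 12.2 CPM, -1.13, -2.01 to -0.32), Scd2 (42.6 and 19.7 CPM, -1.11, -1.78 to -0.47) and Acly (66.5 and 35.4 CPM, -0.91, -1.41 to -0.43). With called doublets kept more members were lower, as given in the closing section. The 8 immature neutrophil markers summed to 6131 and 4455 CPM in basophils or mast cells and the 8 erythroid progenitor markers to 148 and 248 CPM. The 8 plasma cell markers summed to 229 and 145 CPM, and the part of these markers was not tested. In T or NK cells 4 of 11 were lower and 0 higher, beside 13.3% and 10.9% of all genes. Elovl6 stood at 21.4 and 9.33 CPM there (59 and 8 UMIs, -1.20, -2.47 to -0.13) and Scd2 at 45.3 and 27.98 CPM (-0.70, -1.39 to -0.06), while the intervals of Srebf1 and Hmgcs1 included 0. With called doublets kept 2 were lower and 2 higher, beside 13.9% and 9.89% of all genes, and Srebf1 and Hmgcs1 were under the fold. With cells under 5% mitochondrial UMIs 2 were lower and 1 higher, beside 16.3% and 13.9%. In T or NK cells the 9 mature neutrophil markers summed to 709 and 1651 CPM and the 7 granulocyte progenitor markers to 845.5 and 411.5 CPM, and their part in these values was not tested.

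Erythroid cells had 3 of 27 members lower and 0 higher, beside 13.6% and 11.2% of all genes, so the lower count is near that of all genes. Srebf2 stood at 40.5 and 26.1 CPM (-0.63, -0.88 to -0.40), and as a mean over cells its ratio of CPM + 1 was -0.25. Acaca, acetyl-CoA carboxylase, stood at 14.8 and 8.56 CPM (-0.79, -1.23 to -0.38). No enzyme of the mevalonate or sterol steps was past the fold, but as a mean over cells 4 members were higher in erythroid cells, beside 19.6% of all genes. Idi1 stood at 28.8 and 20.1 CPM (-0.52, -0.80 to -0.25), Fdft1 at 24.8 and 18.1 CPM (-0.45, -0.75 to -0.16) and Sqle at 19.4 and 17.1 CPM (-0.18, -0.50 to 0.12). The third was Scd1, a stearoyl-CoA desaturase, with 13.1 CPM in the control (259 UMIs in 16.1% of cells) and 0.590 CPM in the MYC library (4 UMIs in 0.893% of cells), a log2 ratio of -4.47 (-6.36 to -3.10). In immature neutrophils, where Scd1 was near 0, the shares of cells with an Scd1 UMI were 0.580% and 0.194%, at median depths of 9482 and 10946 UMIs against 13570 and 11708 UMIs in erythroid cells. Thinned to 1000 UMIs per cell, leaving out 44 and 28 shallower cells, an Scd1 UMI was kept by 1.24% (0.664 to 2.12) of control erythroid cells and, in the MYC library, by 0 of 420 cells, with an interval up to 0.874%. The richest control cell held 5 of the 259 UMIs. The 8 mature B cell markers summed to 19.7 CPM in control erythroid cells and 3.10 CPM in those of the MYC library, where 3 of them were at 0, and their part in the Scd1 value was not tested. The 12 cell cycle genes were lower in this class too, with 7547 and 4751 CPM, and that was not tested against the members either. The 7 granulocyte progenitor markers summed to 430.5 and 135.6 CPM here and the 8 immature neutrophil markers to 2898 and 4506 CPM. Their part in these values was not tested.

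Scd1 (ENSMUSG00000037071, chromosome 19, 44394455 to 44407879, minus strand) and its neighbour Scd2 (ENSMUSG00000025203, chromosome 19, 44293674 to 44306864, plus strand) both encode stearoyl-CoA desaturases, which put the first unsaturated bond into saturated fatty acids, and their highest classes differed. The highest level of Scd1 was in mature B cells, 290 (270 to 311) and 211 CPM (178 to 248), although it took no part in the clustering. The next class of the control, erythroid cells, was at 13.1 CPM, and no other class with at least 100 cells in each library passed 5.25 CPM in either library. Control B progenitors, of which the MYC library held only 18 cells, were at 64.7 CPM (56.9 to 73.3). Scd2 was at its highest in stem or multipotent progenitors of both libraries and at its lowest in mature neutrophils. Reads of near-identical copies within the Scd family may be divided or lost in counting, so levels of these genes are uncertain to that extent.

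The direction of Scd2 differed between classes. In immature neutrophils it stood at 8.01 CPM in the control (194 UMIs) and 23.7 CPM in the MYC library (567 UMIs), a log2 ratio of 1.57 (1.33 to 1.81). In mature neutrophils it stood at 4.74 and 8.61 CPM (0.86, 0.46 to 1.27), a value named after it was seen, and as a mean over cells its ratio of CPM + 1 was 0.57, under the fold. Granulocyte progenitors, by contrast, had 66.1 and 49.6 CPM (-0.41, -0.59 to -0.24). Cluster 4, the earlier of the immature neutrophil clusters, had 8.88 and 26.8 CPM (1.59, 1.31 to 1.88) and cluster 6 had 6.62 and 15.4 CPM (1.22, 0.75 to 1.70). Thus from granulocyte progenitors to cluster 4 the level of Scd2 was 66.1 and 8.88 CPM in the control but 49.6 and 26.8 CPM in the MYC library. Mature B cells had 46.0 and 17.2 CPM (124 and 12 UMIs, -1.41, -2.41 to -0.56). The difference between classes in the ratio of Scd2 was not tested.

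**Figure D3:**
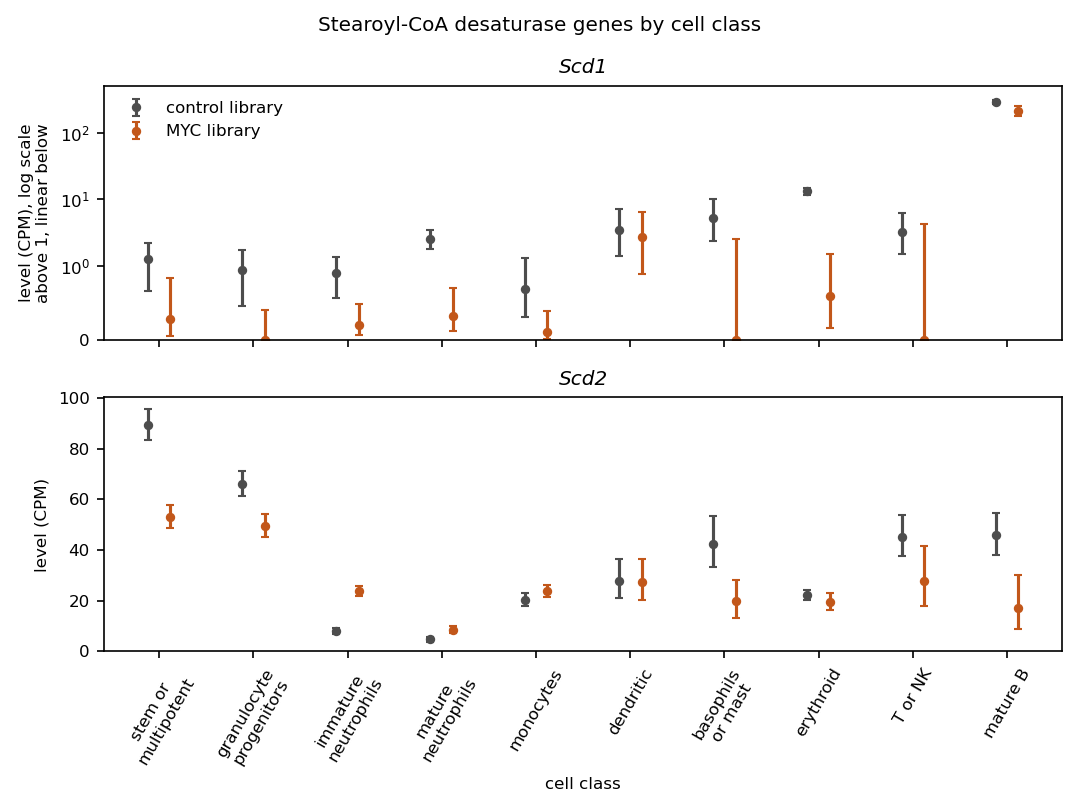
Levels in CPM of Scd1 (upper panel, log axis above 1 and linear below) and Scd2 (lower panel, linear axis) in 10 cell classes; points are class sums of 1 library (grey control, orange MYC library) and bars exact 95% Poisson intervals. Scd1 stands at 290 and 211 CPM in mature B cells and near or below 13.1 CPM elsewhere, while Scd2 is highest in stem or multipotent progenitors and higher in the MYC library in both neutrophil classes.

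Mature B cells, with 498 control cells and 142 of the MYC library, had 4 of 13 members lower and 3 higher, beside 26.5% and 7.24% of all genes. The lower ones were all fatty acid genes: Scd2, Acly (54.1 and 34.5 CPM, -0.65, -1.34 to -0.02), Fasn, fatty acid synthase (20.02 and 11.5 CPM, 54 and 8 UMIs, -0.80, -2.08 to 0.28), and Elovl5 (19.3 and 11.5 CPM, -0.75, -2.03 to 0.34). Pmvk (13.7 and 24.4 CPM, 0.83, -0.09 to 1.70), Fdps (14.5 and 23.0 CPM, 0.67, -0.27 to 1.54) and Ebp (23.0 and 35.9 CPM, 0.64, -0.09 to 1.34) stood higher, each with an interval that included 0. The 9 mature neutrophil markers summed to 470.5 and 1548 CPM in this class, and their part in these values was not tested. With cells under 5% mitochondrial UMIs, which left 73 cells of the MYC library, none of the 3 passed the fold and the ratio of Ebp turned to -0.07. Fewer members were lower in that run as well, as given in the closing section. Srebf2 was level in this class, 90.8 and 90.5 CPM (0.00, -0.43 to 0.40). In the B lineage as a whole 9 of 25 members were lower and 0 higher, beside 39.7% and 7.77% of all genes. The 8 monocyte markers summed to 460.4 and 2595 CPM in the B lineage, the 8 immature neutrophil markers to 2777 and 5148 CPM and the 9 mature neutrophil markers to 441 and 944 CPM, and their part in these values was not tested. B progenitors were 478 of the 1228 cells there in the control and 18 of 248 in the MYC library, and Elovl6 followed them: it stood at 57.3 CPM in control B progenitors and 1.11 CPM in control mature B cells, and at 19.9 and 1.18 CPM in the B lineage of the 2 libraries. Without the clusters that came mostly from 1 library its ratio of CPM + 1 went from -3.26 to -0.42. With median-of-ratios scaling 7 members were lower and 2 higher in the B lineage, beside 25.3% and 13.8%.

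Among the 10 classes, the control class with the highest level was stem or multipotent progenitors or erythroid cells for 6 members each, basophils or mast cells for 4, granulocyte progenitors and monocytes for 3 each, mature neutrophils and mature B cells for 2 each, and dendritic cells and immature neutrophils for 1 each. In the mevalonate branch Acat2 (14.3 CPM), Pmvk (25.1 CPM) and Idi1 (28.8 CPM) were highest in control erythroid cells, Mvk (7.797 CPM) in stem or multipotent progenitors, Fdps (87.8 CPM) in granulocyte progenitors, Mvd (16.5 CPM) in monocytes and Hmgcs1 (26.8 CPM) in basophils or mast cells. The 95% intervals of the highest and the next control class overlapped for 18 of the 28 members, so their order is not settled by the counts; for the other 10, Idi1, Fdps, Fdft1, Sqle, Msmo1, Srebf2, Fasn, Scd1, Scd2 and Elovl5, they did not. Acat2 and Fdps were lowest in mature neutrophils, with 1.14 and 6.96 CPM.

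Of the squalene and sterol steps, Fdft1 (24.8 CPM), Sqle (19.4 CPM) and Nsdhl (10.1 CPM) were highest in control erythroid cells. Lss, lanosterol synthase (12.3 CPM), and Cyp51 (19.3 CPM) were highest in basophils or mast cells, Ebp (67.5 CPM) in monocytes and Dhcr7 (13.2 CPM) in stem or multipotent progenitors. Msmo1 (47.9 CPM) and Sc5d (27.8 CPM) were highest in mature neutrophils and Hsd17b7 (13.5 CPM) in immature neutrophils, so 3 late sterol enzymes had their highest control value in a neutrophil class, although for Sc5d and Hsd17b7 the next class overlapped. In the MYC library Msmo1 was still highest in mature neutrophils (21.7 CPM), Hsd17b7 in immature neutrophils (7.32 CPM), but Sc5d in basophils or mast cells (26.5 CPM), with 14.0 CPM in mature neutrophils. Dhcr7 was lowest in mature neutrophils of both libraries, at 0.780 and 0.866 CPM, from 13 and 16 UMIs.

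Among the regulators, Srebf2 was highest in mature B cells (90.8 and 90.5 CPM), Srebf1 in basophils or mast cells of the control (25.1 CPM) and monocytes of the MYC library (21.0 CPM), Scap in granulocyte progenitors of the control (30.3 CPM) and T or NK cells of the MYC library (27.98 CPM), and Insig1 in dendritic cells of both (17.5 and 7.74 CPM). The class with the lowest Srebf2 was T or NK cells in the control (30.8 CPM) and granulocyte progenitors in the MYC library (13.5 CPM). Acaca (27.7 CPM), Fasn (45.1 CPM), Scd2 (89.4 CPM) and Elovl6 (27.6 CPM) were highest in stem or multipotent progenitors of the control, Elovl5 (58.3 CPM) in granulocyte progenitors and Acly (72.7 CPM) in monocytes. Fasn was lowest in mature neutrophils, at 1.02 and 0.866 CPM, a 44.2-fold span in the control, and Acly varied least, 2.07-fold from erythroid cells to monocytes.

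Plasmacytoid dendritic cells, with 264 control cells and only 71 of the MYC library, were outside the comparison. Their control levels exceeded the highest of the 10 classes for several sterol genes: Hmgcs1 at 104 CPM (91.9 to 118), Msmo1 at 76.2 CPM (65.5 to 88.0), Idi1 at 71.6 CPM (61.3 to 83.1) and Srebf2 at 113 CPM (99.7 to 127). For Srebf2 the interval overlapped that of control mature B cells (79.8 to 102.95), so that order is not settled by the counts. In the 71 cells of the MYC library Hmgcs1 stood at 24.5 CPM (19 UMIs, 14.8 to 38.3) and Msmo1 at 33.6 CPM (26 UMIs, 21.9 to 49.2), while Fdps had 85.7 and 120 CPM. These genes were named after their values were seen. All 28 members summed to 1181 and 886 CPM in this class. The 7 granulocyte progenitor markers summed to 1092 and 334.5 CPM there and the 8 conventional dendritic cell markers to 4113 and 2248 CPM. The 12 cell cycle genes summed to 1079 and 1556 CPM, and the part of these genes and markers was not tested.

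Other genes of the pathway were read from lists that hold no member. Of 9 further cholesterol synthesis and SREBP genes, 1 of 8 with enough UMIs was lower in each neutrophil class, 4 of 9 in granulocyte progenitors and 2 of 9 in monocytes and in stem or multipotent progenitors, and none was higher in these classes. Of all genes, 18.2% were lower in mature neutrophils, 13.8% in immature neutrophils, 22.2% in granulocyte progenitors, 14.8% in monocytes and 10.9% in stem or multipotent progenitors, so the neutrophil counts are not above those of all genes. Stard4, a sterol carrier and SREBP target, was lower in all 5: 6.36 and 1.30 CPM in mature neutrophils (-2.29, -3.00 to -1.64), 14.8 and 7.36 CPM in immature neutrophils (-1.01, -1.28 to -0.75) and 18.4 and 7.30 CPM in monocytes (-1.34, -1.65 to -1.03). Of 19 further fatty acid genes, 2 of 10 were lower and 0 higher in mature neutrophils, beside 18.2% and 7.03% of all genes. In immature neutrophils 3 of 10 were lower and 1 higher, beside 13.8% and 6.71%. Basophils or mast cells had 7 of 11 lower, beside 20.2%, and erythroid cells 4 of 13, beside 13.6%, with 0 higher in both. T or NK cells had 0 of 6 lower and 1 higher, beside 13.3% and 10.9%. Elovl7, an elongase, had 15.3 and 5.14 CPM in immature neutrophils (-1.57, -1.88 to -1.27). Acsl1, which activates fatty acids, had 140 and 65.5 CPM in mature neutrophils (-1.10, -1.20 to -0.996).

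The list of sterol storage, efflux and LXR genes holds 11. In immature neutrophils 3 of 9 with enough UMIs were higher and 2 lower, beside 6.71% and 13.8% of all genes. Mature neutrophils had 2 higher and 2 lower of 9, beside 7.03% and 18.2%, and monocytes 1 and 3 of 9, beside 8.48% and 14.8%. None was higher in granulocyte progenitors (3 of 8 lower, beside 22.2%), conventional dendritic cells (5 of 10, beside 17.2%), basophils or mast cells (3 of 8, beside 20.2%), T or NK cells (4 of 9, beside 13.3%), stem or multipotent progenitors (1 of 9, beside 10.9%) or mature B cells (0 of 8, beside 26.5%). Erythroid cells had 1 higher and 2 lower of 8, beside 11.2% and 13.6%. Abca1, which exports cholesterol to lipoproteins and is an LXR target, stood at 2.22 CPM (37 UMIs) in control mature neutrophils and 21.8 CPM (402 UMIs) in those of the MYC library (log2 ratio 3.29, 2.81 to 3.82). It was higher in monocytes as well, with 1.85 and 6.59 CPM (1.83, 1.19 to 2.53), and in immature neutrophils, with 0.454 and 1.80 CPM (1.99, 1.005 to 3.09). Abcg1, another cholesterol exporter, stood at 10.1 and 23.7 CPM in immature neutrophils (1.23, 1.01 to 1.45) and 40.5 and 53.7 CPM in mature neutrophils (0.41, 0.26 to 0.55), the last under the fold. Mylip, an LXR-induced ubiquitin ligase for lipoprotein receptors, had 37.4 and 58.4 CPM in mature neutrophils (0.64, 0.50 to 0.79), also a value named after it was seen. Of this list, 9 genes were readable in mature neutrophils: 2 were higher, Abca1 and Mylip, and 2 lower, Soat1, which esterifies cholesterol, and Lipa, the lysosomal lipase (named here after their values were seen). The list median was 0.15, beside -0.20 for all genes. In stem or multipotent progenitors Abca1 stood at 5.34 and 4.46 CPM, with an interval that included 0 (-0.26, -0.87 to 0.34).

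**Figure D4:**
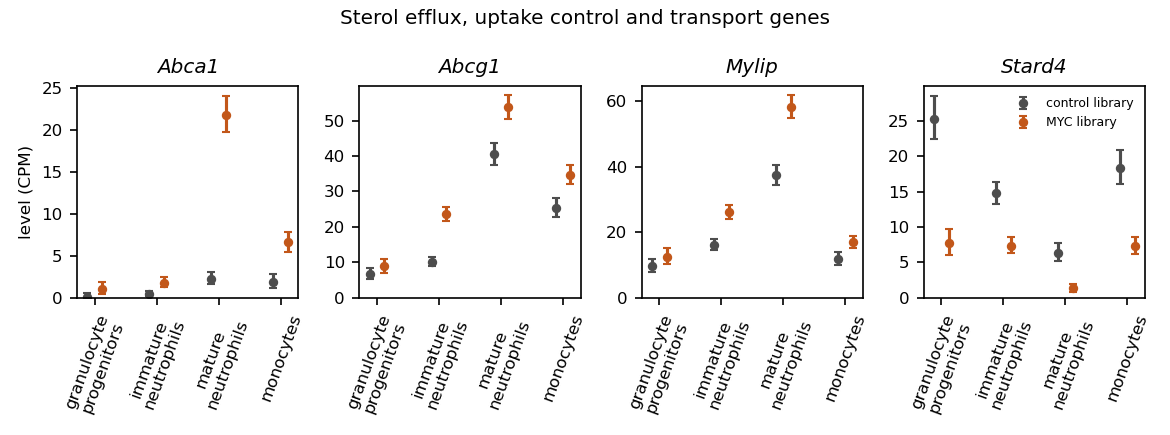
Levels in CPM (linear axes from 0) of Abca1, Abcg1, Mylip and Stard4 in 4 myeloid classes; points are class sums of 1 library (grey control, orange MYC library) and bars exact 95% Poisson intervals. Abca1 is higher in mature neutrophils of the MYC library (21.8 against 2.22 CPM), and Stard4 is lower in each of the 4 classes.

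The 12 cell cycle genes were read beside the members. In mature neutrophils 5 of 12 were lower and 0 higher, beside 18.2% and 7.03% of all genes, and their UMIs summed to 378 and 239 CPM (log2 ratio -0.66, -0.71 to -0.60), with Mcm6, a helicase subunit of replication, at 18.2 and 7.85 CPM (-1.21, -1.51 to -0.92). In immature neutrophils 0 were lower and 1, Birc5, was higher, beside 13.8% and 6.71%. Their UMIs summed to 2600 and 2379 CPM there (log2 ratio -0.13, -0.14 to -0.11). Monocytes and stem or multipotent progenitors had 0 of 12 in either direction. Their UMIs summed to 2762 and 2347 CPM in stem or multipotent progenitors. The 2 monocyte clusters differed, with 4494 and 3706 CPM in cluster 7 (458 and 688 cells) and 353 and 403 CPM in cluster 8 (620 and 639 cells). In granulocyte progenitors 2 of 12 were lower, beside 22.2% of all genes, in erythroid cells 6 of 12, beside 13.6%, in mature B cells 10 of 11, beside 26.5%, and in the B lineage all 12, beside 39.7%, and none was higher in these classes. In conventional dendritic cells 7 of 12 were higher, beside 15.2%, and in basophils or mast cells 3 of 12, beside 8.37%, and none was lower. T or NK cells had 3 of 12 higher and 1 lower, beside 10.9% and 13.3%. The part of cell cycle in the member values was not tested.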

How the data were processed

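The authors' deposited files hold UMI counts per gene and barcode, whole numbers; per the file headers they come from Cell Ranger 6.0.0, and the submitters' processing notes name Cell Ranger 6.0, Seurat, GRCm38 and mm10. The annotation and the way barcodes were called as cells are not given in the sources used here. The control library held 17073 barcodes and 131884603 UMIs, the MYC library 14496 and 110012176. Cells were kept if they had 500 UMIs, 200 genes and less than 10% mitochondrial UMIs, and Scrublet calls (4.53% and 1.95% of cells; 13.7% and 11.6% would be expected) were removed, so doublets remained. Clustering used scanpy 1.11.5 (2000 variable genes without any listed lipid or cell cycle gene, 30 components, 15 neighbours, Leiden resolution 1, seed 0). Of the 2 best-scoring of 19 marker types, a cluster took the first with at least 3 detected markers and support among its 10 leading genes. Chosen after seeing the data, a further rule left clusters under 0.2 of the median UMIs of their library unnamed; these were clusters 19 and 23, and clusters 5 and 16 failed the leading-gene rule. Free RNA was not removed. CPM, exact Poisson, conditional binomial and Clopper-Pearson intervals at 95% were computed with scipy 1.17.1 and checked on simulated data. The members and lists were chosen with earlier results of these data known. Values were given for at most 8 members past 1.5-fold per class and at most 4 other genes, with exceptions named. Of all features 99.8% matched GENCODE vM21 of GRCm38 by identifier. Alternatives were 7: scaling, the filter on counts, mitochondrial share, doublets, resolution, mean over cells and clusters mostly of 1 library. Some genes of these pathways are not reported here.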

Additional observations from a re-analysis of the deposited data

Results flagged for a closer look

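Scd2 and Fdps stood past 1.5-fold in opposite directions in different classes, and the difference between classes was not tested, since each group is 1 library. The log2 ratios of CPM + 1 of Scd2 were 1.46 in immature neutrophils and 0.74 in mature neutrophils, against -0.74 in stem or multipotent progenitors, -1.07 in basophils or mast cells, -0.68 in T or NK cells and -1.36 in mature B cells. Fdps had 0.63 in mature B cells, from 39 and 16 UMIs, and -0.70 in mature neutrophils, from 116 and 72 UMIs.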

How the results depend on the processing

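Of 553 values, 79 pairs of a member and a class under 7 alternatives, 552 kept their direction; Ebp in mature B cells turned to -0.069 with cells under 5% mitochondrial UMIs. The counts of members lower in both neutrophil classes stayed within 1.5 times under every alternative. Other counts moved further, and the cause was not tested; each is followed by the share of all genes called under the same alternative. With median-of-ratios scaling the number higher was 2 (13.8%) in the B lineage and 3 (12.7%) in granulocyte progenitors, and the number lower was 4 (7.13%) in granulocyte progenitors, 5 (8.85%) in monocytes and 2 (6.29%) in stem or multipotent progenitors. With called doublets kept, 2 (9.89%) were higher and 2 (13.9%) lower in T or NK cells, 2 (14.8%) higher in dendritic cells, 6 (19.5%) lower in basophils or mast cells, and 0 (5.74%) higher and 2 (10.6%) lower in stem or multipotent progenitors. With cells under 5% mitochondrial UMIs, 1 was higher in granulocyte progenitors (7.50%), erythroid cells (16.7%) and T or NK cells (13.9%), 3 (16.8%) in dendritic and 0 (10.2%) in mature B cells, and 2 were lower in T or NK cells (16.3%) and mature B cells (29.3%). At Leiden resolution 2, 2 (16.8%) were higher and 2 (17.2%) lower in dendritic cells, 1 (4.13%) higher in granulocyte progenitors and 0 (5.67%) in stem or multipotent progenitors. As a mean over cells, 1 (9.69%) was higher in the B lineage, 4 (19.6%) in erythroid cells and 0 (7.35%) in mature neutrophils, where Scd2 had 0.57, and 2 (17.3%) were lower in dendritic cells. With no filter on low counts, which admits more members, 1 (17.8%) was higher in T or NK cells, 2 (14.1%) in basophils or mast cells and 2 (19.7%) in dendritic cells, and 11 (30%), 9 (26.1%) and 9 (30.4%) were lower in basophils or mast, dendritic and mature B cells. No paired analysis was possible because each group has 1 library. Depth limits Lss and Scd1 most, which had 50 UMIs in 2 of the 10 classes.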
